A study of Homo sapiens with 12 samples.

Results

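The genes described here are COL1A1, COL1A2, COL3A1, COL5A1 and COL5A2, which encode the main chains of the fibrillar collagens that fibroblasts secrete. They were chosen by symbol, after Ensembl gene identifiers had been matched to names, and are 5 of 61541 gene identifiers in the deposited tables. All 5 chains passed the filter on low counts that left 12329 genes for testing. The cells were IMR90, a line of human fetal lung fibroblasts labelled wild type, and polyadenylated RNA was sequenced. Every group had received doxorubicin, an anthracycline that damages DNA and is used to bring on senescence, for 24 h and was then kept in culture for at least 8 days. The groups were cells on plastic with 100 nM, cells on a soft 2 kPa gel with 100 nM, cells on plastic with 250 nM and cells on the gel with 250 nM, with 3 libraries in each group and 12 in all. The titles give the doses in nM and the treatment protocol in µM, and the design speaks of a hydrogel where the growth protocol speaks of plates coated with PDMS. The titles are followed here. Libraries of cells without the drug were not analysed here, so no value below shows what the drug did.

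Fibrillar collagens are rod-like proteins of 3 chains wound around one another, and they give connective tissue its tensile strength. In each chain, glycine opens every triplet of residues, because only glycine has room at the centre of the triple helix. Type I collagen, the main collagen of lung scar, is usually built from a pair of α1(I) chains, made from COL1A1, and a single α2(I) chain, made from COL1A2. Type III collagen has identical chains, all made from COL3A1, and is abundant in distensible tissue. Type V collagen, made mainly from COL5A1 and COL5A2, sits within type I fibrils and limits their diameter. Cells sense the stiffness of what they grow on through integrins and the actin cytoskeleton, and production of type I collagen by fibroblasts is known to depend on it.

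The repeating unit of the helix can be read in the genes. The first exon of 54 bases that lies wholly within each chain's run of glycine codons is printed below, 5′ to 3′ along the coding strand, because it shows the repeat that collagens have in common and that fibrillar chains carry in 1 long unbroken run. Capitals mark the glycine codon that opens each triplet of codons, every 9 bases and 6 to an exon. A glycine codon at another place in a triplet is left in lower case. The exons were read from GRCh38 with the GENCODE 29 annotation. COL1A1 exon 8 is at chr17:50197949-50198002 on the minus strand, COL1A2 exon 8 at chr7:94404693-94404746 on the plus strand and COL3A1 exon 6 at chr2:188988081-188988134 on the plus strand. COL5A1 exon 15 is at chr9:134753850-134753903 on the plus strand and COL5A2 exon 10 at chr2:189085719-189085772 on the minus strand.
COL1A1: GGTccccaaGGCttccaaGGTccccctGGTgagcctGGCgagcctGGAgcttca
COL1A2: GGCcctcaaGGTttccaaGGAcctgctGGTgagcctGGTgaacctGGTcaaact
COL3A1: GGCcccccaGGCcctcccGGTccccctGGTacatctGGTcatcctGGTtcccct
COL5A1: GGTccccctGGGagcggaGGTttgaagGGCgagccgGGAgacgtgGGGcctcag
COL5A2: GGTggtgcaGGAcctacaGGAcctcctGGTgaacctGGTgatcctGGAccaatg

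The longest unbroken run of such triplets was 338 in COL1A1, 339 in COL1A2, 343 in COL3A1, 338 in COL5A1 and 339 in COL5A2. The exons wholly within these runs numbered 41, 42, 42, 47 and 42 in the same order, and the length of every one was a multiple of 9 bases. Exons of 54 bases made up 21 of the 41 in COL1A1 and 29 of the 47 in COL5A1. The coding sequences differed in base composition, with a GC content of 65.1% in COL1A1, 64.4% in COL5A1, 58.8% in COL1A2, 56.9% in COL3A1 and 55.9% in COL5A2. COL1A1 (ENSG00000108821) lies at chr17:50183289-50201632, COL1A2 (ENSG00000164692) at chr7:94394561-94431232 and COL5A1 (ENSG00000130635) at chr9:134641774-134844843. COL3A1 (ENSG00000168542, chr2:188974320-189012746) and COL5A2 (ENSG00000204262, chr2:189031896-189225312) lie tail to tail, 19149 bases apart. Antisense genes overlap COL5A2, COL1A2 and COL5A1, and the strand setting of the counting is not given, but these genes held at most 16, 14 and 1 expected counts in a library.

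Libraries held 5887056 to 7351916 expected counts at 100 nM and 2229069 to 2730309 at 250 nM. Dose therefore goes with depth and with library set, since file names of the 250 nM set alone mention molecular identifiers, and these cannot be told apart from the dose. Replicate 1 of gel at 250 nM stood apart, with a mean correlation of 0.845 to the other libraries of its group against 0.895 to 0.958 for the remaining 11, and with 8.11% of protein-coding counts from mitochondrial genes. That library and replicate 1 of plastic at 100 nM had low shares of counts at ribosomal RNA repeat loci, 13.2% and 14.3%, where the others had 24.2% to 30.7%. All 7 fibroblast markers checked were expressed, led by VIM at a mean of 2210 CPM. Their sum was lower at 250 nM, 1040 to 2240 CPM against 2540 to 4100 CPM at 100 nM, with no overlap. VIM weighs most in this sum, and the other markers were not summed without it. Within each substrate, 35.8% of all tested genes did not overlap between the doses. No endothelial or leukocyte marker reached 1 CPM on average, and CLDN5, CD3E and CD79A were at 0 in all libraries. Of 7 epithelial markers, 3 passed the filter, KRT18 highest at 72.9 CPM, and SFTPC was at 0. The epithelial sum was 42.7 to 115 CPM at 100 nM and 90.5 to 221 CPM at 250 nM. Of 6 smooth muscle and pericyte markers, 4 passed, CNN1 highest at 80.2 CPM, and their sum was 124 to 213 CPM at 100 nM and 185 to 301 CPM at 250 nM. Whether the epithelial and smooth muscle transcripts came from other cells or from the fibroblasts was not tested. Any part of such cells in the results was not tested either. Nothing in the labels says that replicates came from separate cultures, so p-values measure the spread between these samples alone, which may be technical.

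All 5 chains were lower on the soft gel than on plastic, by a factor of 1.91 for COL5A1 to 4.98 for COL3A1 when averaged over both doses. Every plastic library was above every gel library of the same dose for each of the 5 chains. Such a complete separation in this direction was seen for 9.40% of all tested genes at 100 nM, for 7.60% at 250 nM and for 1.93% at both. Values are CPM (expected counts over the effective library size), and group values are mean ± SD with n = 3. In RNA from a whole culture, fewer cells making a transcript and less of it per cell cannot be told apart.

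COL1A1, the α1 chain of type I collagen, read 1792, 1804 and 1665 CPM in the plastic libraries at 100 nM and 452, 569 and 454 CPM on the gel. The libraries at 250 nM read 1989, 2628 and 2423 CPM on plastic and 445, 615 and 730 CPM on the gel. The highest of the 6 gel libraries (730 CPM) was below the lowest of the 6 plastic libraries (1665 CPM). Group means were 1754 ± 77 and 492 ± 67 CPM at 100 nM and 2347 ± 326 and 597 ± 143 CPM at 250 nM. Per edgeR's quasi-likelihood test with Benjamini-Hochberg adjustment over all 12329 genes, COL1A1 fell by 1.83 on the log2 scale at 100 nM (SE 0.21, 3.57-fold, adjusted p = 0.00329). At 250 nM it fell by 1.98 (SE 0.21, 3.94-fold, adjusted p = 0.00313), and this was the 1 gene of all tested that was called at that dose. That call was lost when only the 6 libraries at 250 nM were fitted (adjusted p = 0.152), with the same log2 change.

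COL1A2, the α2 chain of type I collagen, read 1012, 1239 and 1253 CPM on plastic at 100 nM and 380, 518 and 442 CPM on the gel. At 250 nM it read 817, 820 and 777 CPM on plastic and 195, 343 and 341 CPM on the gel. The plastic libraries at 250 nM were close together, with an SD of 2.96% of the mean, and the lowest value, 195 CPM, was that of the gel library that stood apart. COL1A2 fell by 1.39 on the log2 scale at 100 nM (SE 0.22, 2.62-fold, edgeR adjusted p = 0.0229). With only the 6 libraries at 100 nM fitted, the same change was not called (adjusted p = 0.0545). At 250 nM the log2 change was -1.46 (SE 0.23, 2.75-fold, edgeR adjusted p = 0.0808) and was not called. Without the library that stood apart it was -1.26 and called (edgeR adjusted p = 0.0473).

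COL3A1, the only chain of type III collagen, read 143, 145 and 189 CPM on plastic at 100 nM and 34.8, 23.2 and 11.6 CPM on the gel. Its values at 250 nM were 102, 61.5 and 53.8 CPM on plastic and 34.7, 12.1 and 12.2 CPM on the gel. The groups did not overlap, but COL3A1 varied more among gel replicates than any other chain, with an SD of 50.2% of the mean at 100 nM and 66.0% at 250 nM. The gel values at 250 nM rest on 105, 25 and 29 counts. COL3A1 fell by 2.78 on the log2 scale at 100 nM (SE 0.44, 6.88-fold, edgeR adjusted p = 0.0229). At 250 nM the log2 change was -1.85 (SE 0.45, 3.61-fold, edgeR adjusted p = 0.217), and without the library that stood apart it was -2.60 (adjusted p = 0.0722).

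The type V chains differed least in the case of COL5A1. It read 106, 76.8 and 89.1 CPM on plastic at 100 nM and 37.2, 51.3 and 50.8 CPM on the gel, and at 250 nM 109, 109 and 116 CPM on plastic and 42.0, 67.5 and 69.1 CPM on the gel. COL5A2 read 143, 183 and 265 CPM on plastic at 100 nM and 104, 74.2 and 60.7 CPM on the gel. At 250 nM COL5A2 read 186, 103 and 93.9 CPM on plastic and 44.0, 45.6 and 39.2 CPM on the gel. COL5A2 was thus scattered on plastic, with an SD of 31.8% and 39.9% of the mean at the lower and higher dose, and close together on the gel at 250 nM, at 7.79%. The log2 change of COL5A1 was -0.96 (SE 0.22, adjusted p = 0.12) at 100 nM and -0.91 (SE 0.22, adjusted p = 0.217) at 250 nM in edgeR. For COL5A2 it was -1.31 (SE 0.30, adjusted p = 0.12) and -1.57 (SE 0.31, adjusted p = 0.201). Neither type V chain was called at either dose taken alone, and COL5A1 passed at 100 nM without the library that stood apart (-0.96, adjusted p = 0.02).

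**Figure D1:**
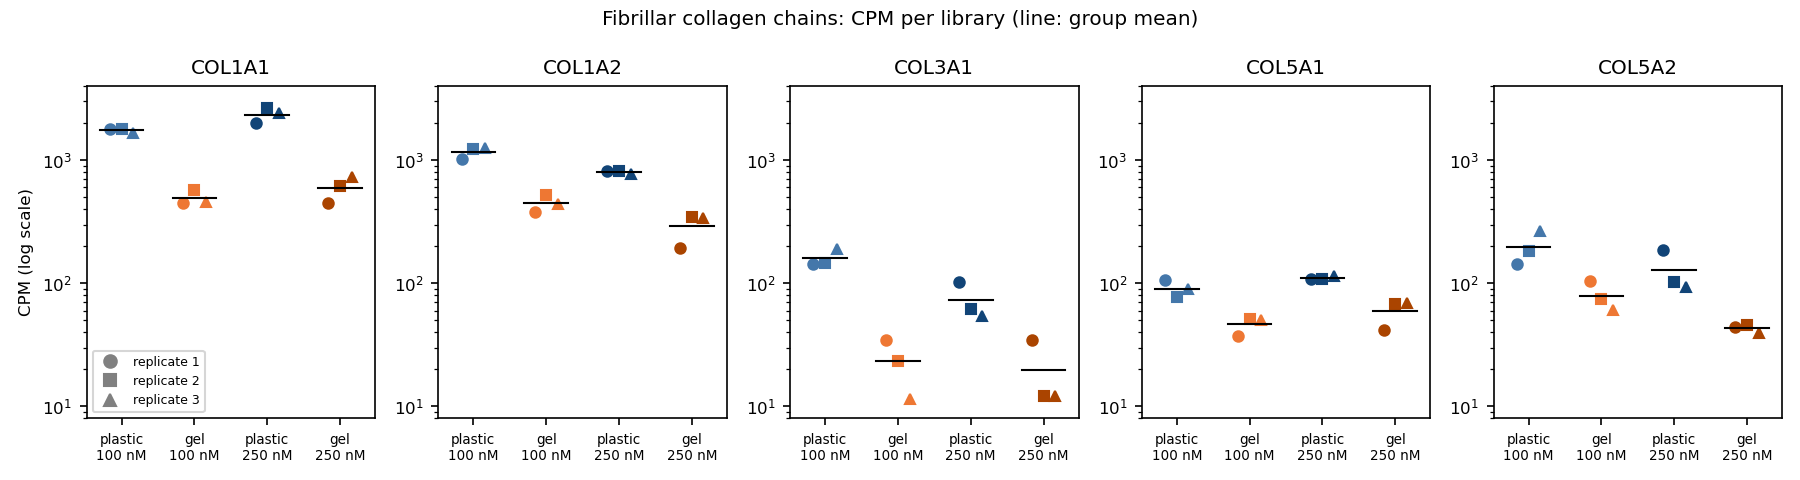
CPM of each chain in each library on a log axis, by substrate and dose, with the replicate number as the marker shape and a line at the group mean (n = 3). In all 5 panels each plastic library lies above each gel library of the same dose, and COL3A1 has the widest scatter on the gel, from 11.6 to 34.8 CPM at 100 nM.

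Averaged over both doses, all 5 chains were called lower on the gel by edgeR. COL1A1 fell by 1.91 (95% interval -2.23 to -1.59, adjusted p = 6.51e-05) and COL1A2 by 1.42 (adjusted p = 0.00102) on the log2 scale. COL3A1 fell by 2.32 (adjusted p = 0.0036), COL5A2 by 1.44 (adjusted p = 0.00665) and COL5A1 by 0.94 (adjusted p = 0.0137). The count of chains called lower was 3 of 5 at 100 nM, where 0.154% of all genes were called lower, 1 of 5 at 250 nM, where the share was 0.00811%, and 5 of 5 over both doses, where it was 0.479%. The median log2 change of the 5 chains was -1.39, -1.57 and -1.44 in that order, and that of all tested genes -0.01, -0.02 and -0.01. Leaving out any 1 of the 12 libraries left all 5 chains called over both doses. On the log2(TPM + 1) scale with limma, 3 of 5 were called over both doses, and COL1A2 (adjusted p = 0.0671) and COL5A1 (adjusted p = 0.206) were not.

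At a single dose, leaving out 1 library could end a call while the change stayed about as large. At 100 nM COL1A2 was no longer called without plastic replicates 2 or 3, any 1 gel library, or replicates 2 or 3 of plastic at 250 nM (log2 change -1.51 to -1.28, adjusted p = 0.0562 to 0.143). COL3A1 was no longer called there without any 1 plastic library, without gel replicates 2 or 3, or without replicate 2 of plastic at 250 nM (log2 change -2.85 to -2.46, adjusted p = 0.056 to 0.114). Leaving out a plastic library at 250 nM, which is not in this comparison, left the changes at -1.39 for COL1A2 and -2.78 for COL3A1. COL1A1 was called at both doses in every such fit. DESeq2 called all 5 chains at each dose, among 149 genes in all at 100 nM and 89 at 250 nM.

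The gel effect was not shown to differ between the doses for any chain, and 0 of all tested genes (0%) were called in that comparison by edgeR, DESeq2 or limma-voom, with 779 at an unadjusted p under 0.05 in edgeR. The difference, 250 nM less 100 nM, was -0.14 for COL1A1 with a 95% interval of -0.76 to 0.48, and -0.07 for COL1A2 with -0.74 to 0.60. For COL5A1 it was 0.06 with an interval of -0.61 to 0.73 and for COL5A2 -0.26 with -1.17 to 0.64. COL3A1 had the widest interval, -0.36 to 2.23 around 0.93, and without the gel library that stood apart its difference was 0.18. Unadjusted edgeR p-values of the 5 chains here ranged from 0.145 to 0.854.

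**Figure D2:**
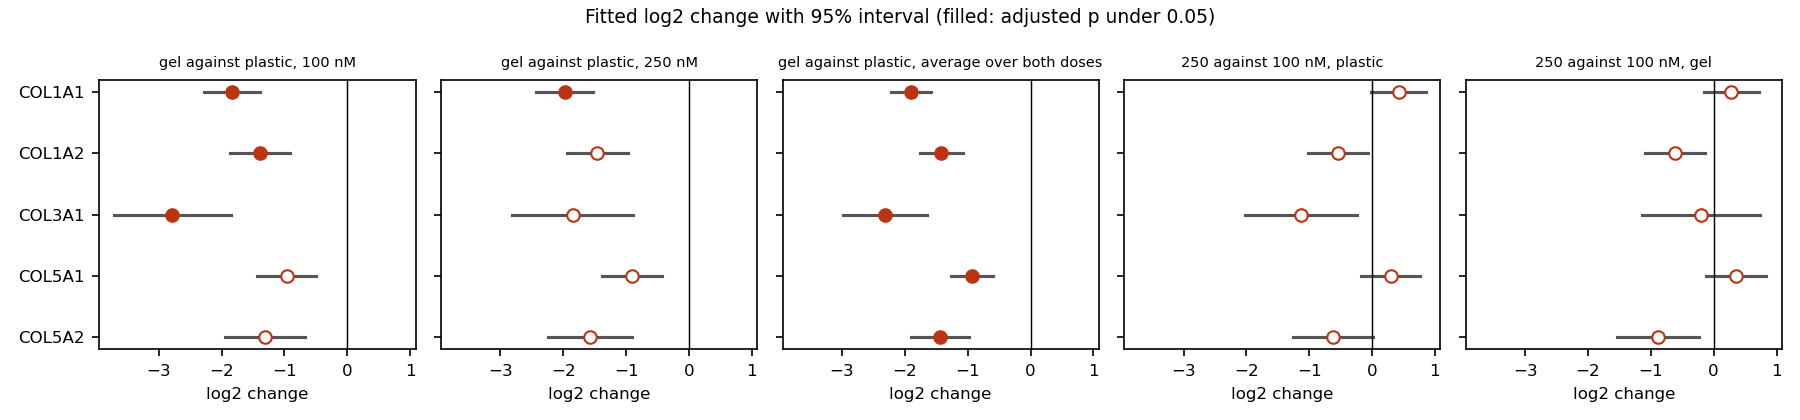
Fitted log2 changes of each chain (points) with their 95% intervals (lines) in 5 comparisons, filled where the edgeR adjusted p is under 0.05. All 5 points are filled in the average over both doses, from -0.94 for COL5A1 to -2.32 for COL3A1, and none is filled in the dose comparisons.

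Between doses, the 2 chains of each heterotypic collagen had fitted changes of opposite sign. On plastic, the log2 change from 100 to 250 nM was 0.42 (95% interval -0.02 to 0.86) for COL1A1 and -0.54 (-1.01 to -0.06) for COL1A2, and 0.29 (-0.17 to 0.76) for COL5A1 and -0.63 (-1.26 to 0.01) for COL5A2. On the gel it was 0.28 for COL1A1, -0.61 for COL1A2, 0.35 for COL5A1 and -0.89 for COL5A2. The libraries of the doses did not overlap for 4 of 5 chains on plastic and 2 of 5 on the gel, where 35.8% of all tested genes did not overlap on either substrate. None of the 5 chains was called by edgeR in either dose comparison, where 8.52% of all genes were called on plastic and 13.8% on the gel. At an unadjusted p under 0.05 there were 2 of 5 chains on each substrate, near the share of all genes, 3189 of 12329 on plastic and 3878 on the gel. DESeq2 called 0 chains of 1561 genes on plastic and 2 chains, COL1A2 and COL5A2, of 2235 genes on the gel. Adjusted p-values ran from 0.101 to 0.424 on plastic and from 0.0669 to 0.789 on the gel. Without the gel library that stood apart, COL1A2 (-0.53, adjusted p = 0.0293) and COL3A1 (-1.13, adjusted p = 0.0281) were called on plastic with changes of nearly the same size, in a fit that called 2285 genes in all where the fit with every library called 1050. For COL3A1 the change was -1.13 on plastic and -0.20 on the gel, and the latter was -0.95 without the library that stood apart.

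Levels were compared between chains per length, on 2 scales. CPM per kb divides by the length of the full transcript in GENCODE 29, from 5411 bases for COL1A2 to 8471 for COL5A1, and is the same divisor in every library. TPM, as deposited, divides by a length that RSEM estimates in each library from its mix of transcripts. The type I chains led in all 12 libraries on both scales. On plastic at 100 nM COL1A1 had 261 ± 11.4 and COL1A2 216 ± 25 CPM per kb, against 28.7 ± 4.71 for COL3A1, 27.8 ± 8.84 for COL5A2 and 10.7 ± 1.73 for COL5A1. COL3A1 and COL5A2 did not differ beyond their spread in this group. The type I chains themselves overlapped on the gel at 100 nM, with 73.1 ± 9.96 for COL1A1 and 82.5 ± 12.8 for COL1A2, and were apart on plastic at 250 nM (349 ± 48.5 and 149 ± 4.43) and on the gel at 250 nM (88.7 ± 21.3 and 54.1 ± 15.7).

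The order below the type I chains depended on the scale. In TPM, COL3A1 was above COL5A2 and COL5A2 above COL5A1 in 9 of 12 libraries, all 6 plastic libraries among them. Per kb, COL3A1 was above COL5A1 in all 3 plastic libraries at 100 nM (28.7 against 10.7 on average), while on the gel at 100 nM the means were 4.19 ± 2.10 and 5.48 ± 0.94 and their ranges overlapped. On plastic at 250 nM COL5A2 had 18.0 ± 7.20, COL5A1 13.1 ± 0.43 and COL3A1 13.1 ± 4.69 CPM per kb, with overlapping ranges. On the gel at 250 nM COL5A1 had 7.03 ± 1.80, COL5A2 6.06 ± 0.47 and COL3A1 3.55 ± 2.35 CPM per kb, again overlapping. In TPM, COL1A1 had 326 ± 36.4 and COL1A2 373 ± 131 on plastic at 100 nM, and 92.8 ± 17.4 and 181 ± 17.7 on the gel, so COL1A2 ranked first in 6 of 12 libraries on that scale and in 3 of 12 per kb.

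As a share of all protein-coding counts, the 5 chains together made up 0.518 ± 0.0371% on plastic and 0.172 ± 0.0174% on the gel at 100 nM, and 0.496 ± 0.0151% and 0.142 ± 0.0315% at 250 nM. Within the 5 chains, COL1A1 took 48.1 ± 4.0% of the CPM per kb on plastic at 100 nM and 41.4 ± 0.702% on the gel, against 64.2 ± 4.86% and 55.5 ± 2.31% at 250 nM. COL1A2 took 39.6 ± 2.69% and 46.6 ± 3.16% at 100 nM and 27.5 ± 2.06% and 33.6 ± 3.45% at 250 nM. COL3A1 took 5.27 ± 0.729% on plastic at 100 nM and 2.41 ± 1.33%, 2.46 ± 1.04% and 2.57 ± 2.32% in the other groups. COL5A1 took 1.98 ± 0.419% on plastic and 3.11 ± 0.463% on the gel at 100 nM, and 2.43 ± 0.192% and 4.38 ± 0.252% at 250 nM. For COL5A2 the shares were 5.08 ± 1.43% and 6.46 ± 2.2% at 100 nM and 3.39 ± 1.59% and 3.97 ± 1.13% at 250 nM. The type I chains together thus held most of the summed CPM per kb of these 5 chains in every library.

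**Figure D3:**
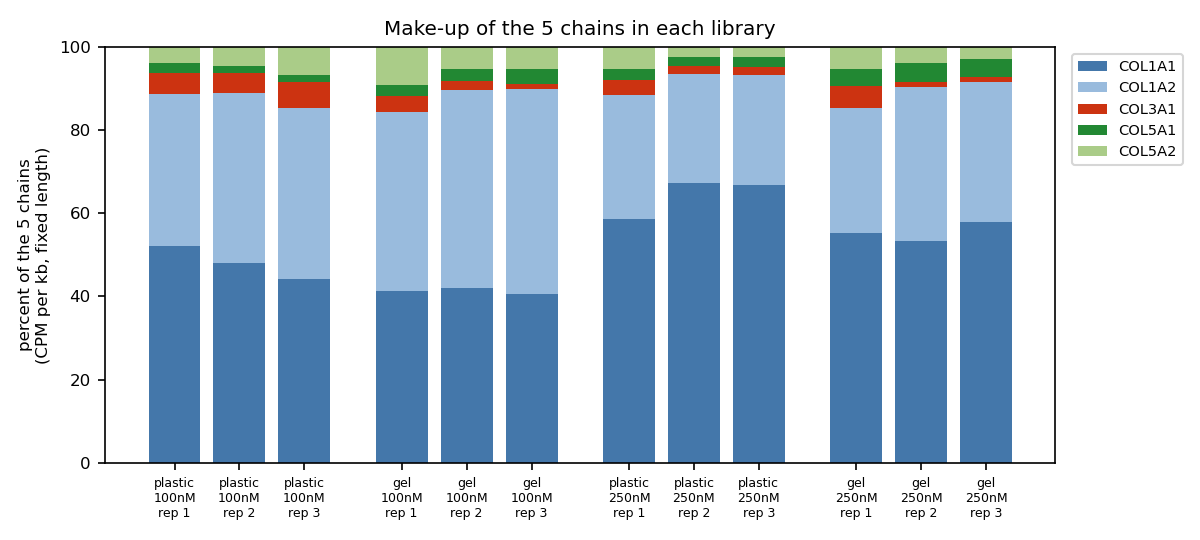
Share of each chain in the summed CPM per kb of the 5 chains, in percent, 1 bar per library. The COL1A1 segment runs from 40.7% to 52.1% in the 6 libraries at 100 nM and from 53.3% to 67.3% in the 6 at 250 nM.

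The ratio of COL1A1 to COL1A2 per kb was 1.42, 1.17 and 1.07 on plastic at 100 nM and 0.957, 0.884 and 0.827 on the gel. In the 250 nM libraries it was 1.96, 2.58 and 2.51 on plastic and 1.84, 1.44 and 1.72 on the gel. The ratio was lower on the gel at each dose, with no overlap. The log2 difference in counts, gel less plastic, was -0.45 at 100 nM and -0.49 at 250 nM, and -0.47 over both (exact two-sided permutation p = 0.005, adjusted p = 0.02 over the 8 ratio tests). The p of 0.005 is the smallest that the 400 arrangements allow. In TPM, the scale of the main test, the difference was -0.65 (exact permutation p = 0.035, adjusted p = 0.07) and did not pass. The TPM ratio was 1.54, 0.788 and 0.619 on plastic at 100 nM and 0.494, 0.571 and 0.467 on the gel, and overlapped at 250 nM (1.34 to 2.26 and 0.899 to 2.11). Without the gel library that stood apart, the TPM difference was -0.81 (exact permutation, adjusted p = 0.03).

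Both scales gave a higher ratio of COL1A1 to COL1A2 at 250 nM than at 100 nM. The log2 difference was 0.92 in counts (exact permutation p = 0.005, adjusted p = 0.02), a ratio 1.89 times as high, and 1.21 in TPM (exact permutation p = 0.01, adjusted p = 0.04). All 6 libraries at 250 nM were above all 6 at 100 nM per kb. Depth and library set go with the dose. Among the 10906 tested genes with a GC value, ranked into 10 equal classes, the class that holds COL1A1 had a median log2 change of 0.42 on the gel and -0.10 on plastic from 100 to 250 nM, and the class that holds COL1A2 0.23 and 0.07. Set against these medians, COL1A1 was at 0.52 and COL1A2 at -0.61 on plastic, and at -0.14 and -0.84 on the gel. In the gel comparisons the same subtraction left COL1A1 at -1.77 at 100 nM and -2.36 at 250 nM, and COL3A1 at -2.79 and -1.87. It left COL1A2 at -1.36 and -1.59, COL5A1 at -0.93 and -1.14, and COL5A2 at -1.31 and -1.54. Whether base composition had a part in any of these changes was not tested.

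COL5A1 to COL5A2, the chains of type V collagen, had a TPM ratio of 0.574, 0.340 and 0.265 on plastic and 0.310, 0.612 and 0.841 on the gel at 100 nM. At 250 nM it was 0.589, 0.938 and 0.936 on plastic and 0.722, 1.44 and 2.13 on the gel. The substrates overlapped at both doses, and the gel difference of 0.61 on the log2 scale did not pass (exact permutation p = 0.1, adjusted p = 0.133). The difference between doses was 1.13 (exact permutation p = 0.015, adjusted p = 0.04), and 1.07 in counts (adjusted p = 0.04). The 2 ratios within a collagen type therefore both stood higher at 250 nM, by 2.31 and 2.2 times in TPM. Set against the medians of their GC classes, COL5A1 was at 0.24 and COL5A2 at -0.76 on plastic, and at -0.01 and -0.97 on the gel. On the gel the values of COL1A1 and COL5A1, -0.14 and -0.01, were smaller in size than the standard errors of their changes, 0.20 and 0.22. Whether base composition had a part in the dose changes was not tested.

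**Figure D4:**
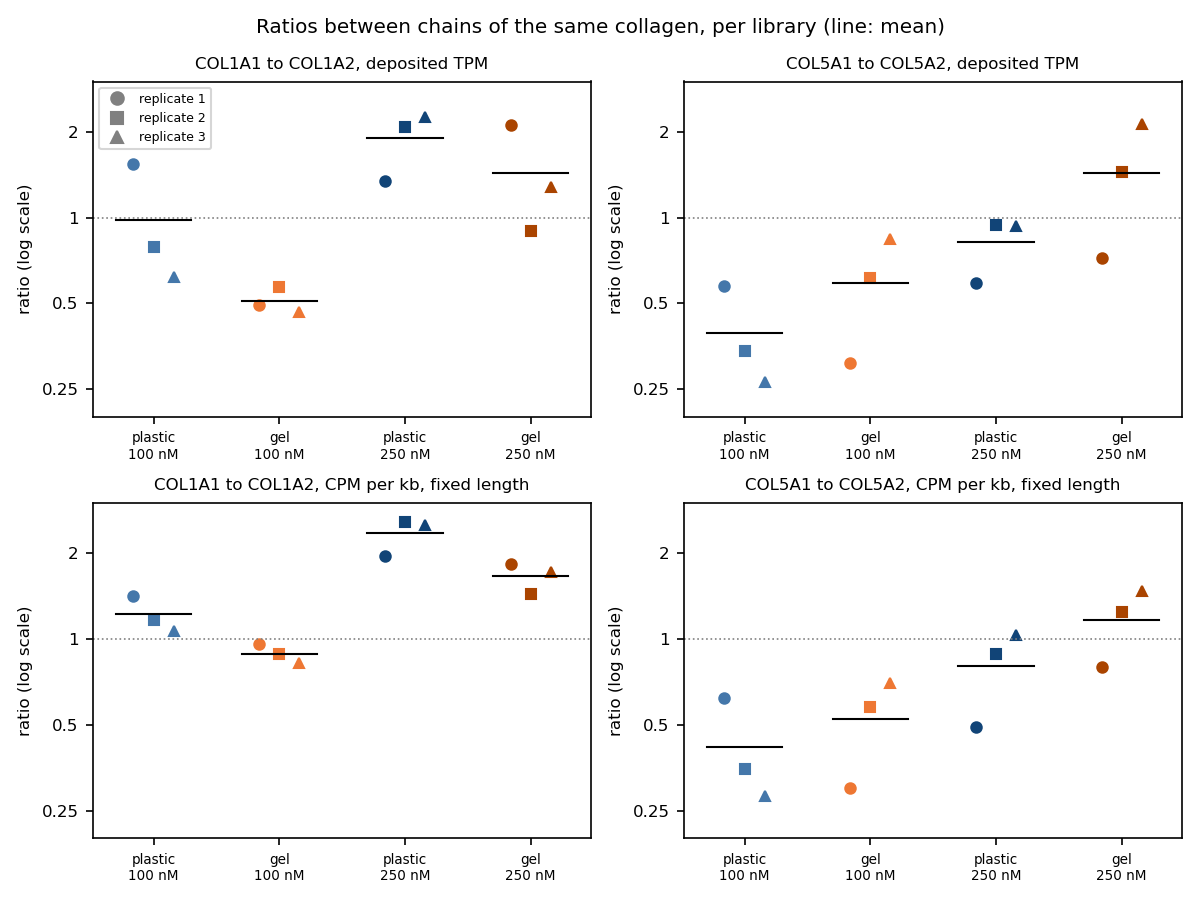
Ratio of the chains of type I (left) and type V (right) collagen in each library, from deposited TPM (top) and from CPM per kb of a fixed length (bottom), on a log axis with a line at the group mean. The COL1A1 to COL1A2 ratio is tighter within groups on the fixed length, where gel and plastic do not overlap at either dose, than in TPM.

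The ratio of COL3A1 to COL1A1, which sets type III against type I, was 0.206 ± 0.0638 on plastic and 0.129 ± 0.0637 on the gel at 100 nM in TPM, and 0.0635 ± 0.0424 and 0.0478 ± 0.0392 at 250 nM. The gel difference of -0.54 on the log2 scale did not pass (exact permutation, adjusted p = 0.257). It was -0.70 at 100 nM and -0.37 at 250 nM, with overlap at each dose. In counts it was -0.53 over both doses (exact permutation, adjusted p = 0.3), -1.06 at 100 nM without overlap and -0.002 at 250 nM. Per kb, the gel library that stood apart read 0.0947 at 250 nM, beside 0.0239 and 0.0203 in the other gel libraries. The dose difference was -1.67 in TPM (exact permutation, adjusted p = 0.04) and -1.06 in counts (exact permutation, adjusted p = 0.088), so it was called in TPM and not in counts. The summed type V to type I chains stood at 0.0613 ± 0.00688, 0.0687 ± 0.0120, 0.0533 ± 0.0176 and 0.0726 ± 0.00675 in TPM for plastic and gel at 100 nM and plastic and gel at 250 nM. Neither the gel difference (0.35, adjusted p = 0.12) nor the dose difference (-0.07, adjusted p = 0.625) passed the exact permutation test. In counts the gel difference was larger, 0.56 or 1.47 times (exact permutation p = 0.025, adjusted p = 0.05), and lay at the threshold without passing it, and the dose difference was -0.29 (adjusted p = 0.18).

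The lengths that RSEM assigned to a gene, which CPM per kb does not use, differed between libraries. TPM divides by the effective length that goes with each of them, which is not shown here. For COL1A2 the length was 4861, 3138 and 2652 bases on plastic at 100 nM and 2252, 2695 and 2479 bases on the gel, where the full transcript has 5411. At 250 nM it ran from 3029 to 3853 bases on plastic and from 2628 to 4146 on the gel. For COL3A1, of 5543 bases in full, it was 1960 ± 124 bases on the gel at 100 nM and 3670 ± 145 on the gel at 250 nM. COL5A2 held steady, between 6215 and 6780 bases in all 12 libraries, and COL1A1 ran from 4480 to 5724. COL5A1 ran from 5423 to 8442. A short length raises TPM at the same count, so the TPM of COL1A2 and COL3A1 depends on transcript assignments that these files do not show. The annotation release behind the files is not given, and full lengths from GENCODE 29 may differ from those it held.

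**Figure D5:**
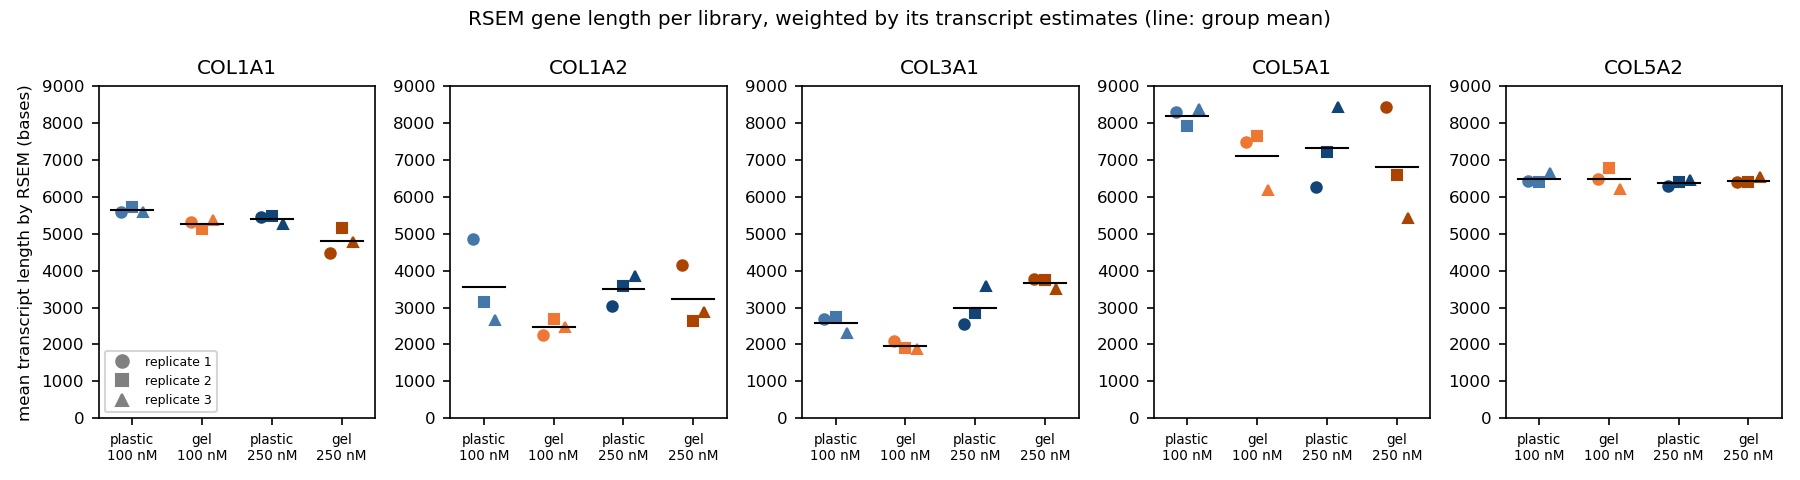
Length that RSEM gave each gene in each library, in bases, with a line at the group mean. COL5A2 stays between 6215 and 6780 bases, whereas COL1A2 ranges from 2252 to 4861 and COL3A1 from 1886 to 3771.

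The profile of each chain over the 12 libraries was compared with those of 8959 protein-coding genes of at least 5 CPM on average, by the root mean square difference of centred log2 CPM, where 0 means the same profile. Nearest to COL1A1 were NREP (0.40), BST1 (0.40) and LMCD1 (0.45), and nearest to COL1A2 were FAM107B (0.29), USP44 (0.30) and MB21D2 (0.30). POSTN, which encodes the matrix protein periostin, was nearest to both COL3A1 (0.54) and COL5A2 (0.28). C1R (0.60) and PRSS12 (0.63) followed for COL3A1, and GMNN (0.33) and PDE5A (0.34) for COL5A2. SORT1 (0.20), SPARC (0.22), a collagen-binding matrix protein, and SLC2A1 (0.23), a glucose transporter, were nearest to COL5A1. The median over all genes compared ranged from 0.69 for COL5A1 to 1.46 for COL3A1. Among the chains themselves COL1A2 and COL5A2 were nearest (0.40), nearer than COL1A1 and COL1A2 (0.54) or COL5A1 and COL5A2 (0.74), and COL3A1 and COL5A1 were farthest apart (1.17).

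Of 6 other fibrillar collagen genes, 3 passed the filter and none was called in any comparison. COL11A1, an α1 chain of type XI collagen that can join type V chains, had 94.7 ± 27.9 CPM on plastic and 55.1 ± 27.8 on the gel at 100 nM, and 152 ± 79.4 and 52.8 ± 35.2 at 250 nM. Gel and plastic did not overlap at 100 nM and overlapped at 250 nM, and its log2 change over both doses was -1.16 (95% interval -2.05 to -0.27, edgeR adjusted p = 0.236). COL27A1 had 23.6 ± 6.27, 25.5 ± 6.15, 22.1 ± 4.22 and 26.5 ± 1.48 CPM in the same order, with a change of 0.18 (-0.21 to 0.57). COL5A3, a further type V chain, averaged 1.12 CPM and its change was -0.57 with an interval of -2.60 to 1.46. COL24A1 and COL11A2 averaged 1.82 and 0.373 CPM and were not tested, and COL2A1, the cartilage collagen, had 0 counts in all 12 libraries.

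Of the proteins that fold and export procollagen, 14 of 15 listed symbols were matched and all 14 tested. SERPINH1, which encodes the collagen chaperone HSP47, had 128 ± 14.0 CPM on plastic and 63.8 ± 12.4 on the gel at 100 nM, and 103 ± 6.47 and 73.5 ± 4.28 at 250 nM. It fell by 1.00 on the log2 scale at 100 nM (edgeR adjusted p = 0.0446) and by 0.74 over both doses (adjusted p = 0.0175). It was the only member called on the gel, 1 of 14 at 100 nM, 0 of 14 at 250 nM and 1 of 14 over both doses, beside 0.154%, 0.00811% and 0.479% of all genes called lower, and the list's median was -0.27, -0.04 and -0.18. At 250 nM its most abundant members, HSPA5, a chaperone of the endoplasmic reticulum, and SEC23A, a coat protein of export vesicles, had log2 changes of -0.28 and -0.21. Between doses, 1 of 14 was called on plastic and 2 of 14 on the gel, close to the 8.52% and 13.8% of all genes. PPIB, a prolyl isomerase of the endoplasmic reticulum, fell by 1.35 on the log2 scale on plastic (adjusted p = 0.0161). On the gel MIA3, an export receptor for procollagen, fell by 0.97 (adjusted p = 0.0389), and LARP6, which binds type I collagen mRNAs, rose by 1.07 (adjusted p = 0.0124).

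ADAMTS2, which removes the amino-terminal propeptide of procollagen, was the 1 gene called among 4 tested proteinases and enhancers. It was called on the gel over both doses, where 0.479% of all genes were called lower. It had 26.5 ± 3.71 CPM on plastic and 15.2 ± 2.59 on the gel at 100 nM and 33.7 ± 8.97 and 15.7 ± 1.33 at 250 nM, and fell by 0.95 on the log2 scale over both doses (edgeR adjusted p = 0.0212). PCOLCE, which enhances removal of the carboxy-terminal propeptide, had -0.74 at 100 nM and 0.62 at 250 nM and was not called. Neither of the 2 fibril-associated collagens that passed the filter was called. COL12A1, which lies on the surface of type I fibrils, had a log2 change of -1.17 over both doses (95% interval -2.06 to -0.29, adjusted p = 0.231) and COL16A1 one of -0.67 (adjusted p = 0.425). None of 7 tested collagen receptors was called on the gel. ITGB1, the β1 integrin, averaged 2410 CPM with a log2 change of -0.14 over both doses. ITGA2, the α2 integrin, had 257 ± 51.7 CPM on plastic and 552 ± 137 on the gel at 100 nM (log2 change 1.10, adjusted p = 0.11). From 100 to 250 nM on the gel, ITGA1 fell by 1.07 (edgeR adjusted p = 0.0367) and DDR1, a collagen-binding tyrosine kinase, rose by 1.07 (adjusted p = 0.0345). These 2 of 7 receptors stand beside 13.8% of all genes called in that comparison.

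MMP1, the interstitial collagenase that cleaves type I and type III collagen, was higher on the gel, opposite in sign to the chains. It had 60.8 ± 16.5 CPM on plastic and 384 ± 151 on the gel at 100 nM, and 137 ± 30.3 and 359 ± 23.2 at 250 nM. MMP1 rose by 2.66 on the log2 scale at 100 nM (6.31-fold, edgeR adjusted p = 0.00329) and by 2.03 over both doses (4.07-fold, adjusted p = 0.000876), and its change at 250 nM was 1.40 (adjusted p = 0.201). It was the 1 of 4 tested genes of fibrillar collagen breakdown to be called on the gel. Of 12329 genes, 28 were called in either direction at 100 nM and 93 over both doses. MMP14, at 180 CPM on average, had a log2 change of 0.55 at 250 nM (edgeR adjusted p = 0.609). MMP1 also rose by 1.17 from 100 to 250 nM on plastic (edgeR adjusted p = 0.0263). It was the 1 of 4 called there, where 8.52% of all genes were called.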

How the data were processed

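Gene tables of 12 RNA-seq libraries were used. Their expected count column was deposited as estimated by RSEM, and their TPM column as scaled by RSEM for length and total, both per the file headers. The deposited FPKM column was left unused, and the gene length column was used as deposited. Trimmomatic, STAR, RSEM, DESeq2 1.36.0 and GRCh38 are named in the submitters' processing notes. The annotation release, the strand setting and any collapsing by molecular identifier are not given there.

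Expected counts were rounded and fitted in R 4.3.3 with edgeR 4.0.16 (filterByExpr, TMM, quasi-likelihood test, 1 mean per group over all 12 libraries, 8 residual degrees of freedom). Genes with an adjusted p under 0.05 (Benjamini-Hochberg over 12329 genes within each of 6 comparisons) were called. The common biological coefficient of variation was 0.299. Chain ratios used log2(TPM + 0.5) and an exact permutation test within strata (scipy 1.17.1), adjusted over 8 tests. The supplied name table gave symbols for 61369 of 61541 identifiers, and GENCODE 29 gave coordinates, lengths and exons.

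On data simulated for gel against plastic at 100 nM (12052 genes), the test recovered 4%, 16%, 84% and 100% of 1.5, 2, 4 and 8-fold changes and made 7 false calls. The changed genes were drawn from those of at least 5 CPM on average. All groups otherwise had the same means, so no dose difference and no library that stands apart was simulated. The alternatives tried were RLE or upper-quartile factors, no mitochondrial or ribosomal RNA repeat loci, no filter on low counts, DESeq2 1.42.0, limma-voom, limma-trend on log2(TPM + 1) or log2(TPM + 0.1) with limma 3.58.1, only the libraries compared, a replicate block, thinning to equal depth, and leaving out libraries. Named were the 5 chains, the other fibrillar collagen genes, up to 4 called members of each other list (mean CPM of at least 1) or, with none called, the 2 most abundant, and the 3 genes nearest in profile to each chain. Some genes of that rule were left out for brevity. The members and lists were chosen with earlier results of these data known.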

Additional observations from a re-analysis of the deposited data

How the results depend on the processing

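The direction of the gel difference was the same for all 5 chains at each dose and over both doses in every alternative run. Chains called at 100 nM, 3 in the report, were 5 without the filter on low counts and 5 with DESeq2, 1 with either limma-trend fit on TPM, and 1 to 4 when 1 library was left out. At 250 nM, 1 in the report, they were 2 with upper-quartile factors, 4 without the filter, 5 with DESeq2, 2 with limma-voom, 0 with only the libraries compared, 2 without both libraries that stand apart, and 1 to 2 with 1 left out. Over both doses, 5 in the report, they were 3 with either limma-trend fit and 5 with any 1 left out. For dose on plastic, 0 in the report, they were 1 without the filter, 1 with only the libraries compared, 2 without both libraries that stand apart, and 0 to 2 with 1 left out. For dose on the gel, 0 in the report, they were 1 without the filter, 2 with DESeq2, and 0 to 1 with 1 left out. The cause was not tested. Over all genes, calls ranged from 3 to 335 at 100 nM, 0 to 231 at 250 nM, 40 to 573 over both doses, 0 to 129 for the difference between doses, 132 to 2285 for dose on plastic and 443 to 2255 on the gel.

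Replicate numbers are shared between groups, but nothing in the labels says that they mark a shared culture, so they were not taken to pair the samples. Deviations of same-numbered libraries correlated at -0.236 to 0.323 (median 0.071, 18 pairs). Those of other-numbered libraries correlated at -0.301 to 0.39 (median -0.051, 36 pairs). Of 12 libraries, 7 were nearest to their own number. These values do not settle whether the numbers pair the samples. With the replicate block, chains called were 2 at 250 nM, 1 for dose on plastic and 1 for dose on the gel. The block left the dose differences in log2 TPM ratio at 1.208 for COL1A1 to COL1A2, 1.134 for COL5A1 to COL5A2 and -1.673 for COL3A1 to COL1A1. The exact permutation test then flips signs of same-numbered differences, and gave adjusted p-values of 0.125, 0.0833 and 0.0833. It allows few arrangements, so its smallest p lies above the 0.005 of the main test. For COL5A1 to COL5A2 and COL3A1 to COL1A1 every same-numbered difference had the same sign, so their p-values were the smallest possible. For these ratios a call lost there does not show a weaker difference. For COL1A1 to COL1A2, replicate 1 on plastic went the other way, with a TPM ratio of 1.54 at 100 nM and 1.34 at 250 nM.

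Signs changed for the difference of the gel effect between doses and for the dose change of COL3A1 on the gel, none of them called. The difference of the gel effect between doses was -0.043 and -0.036 for COL5A1 with limma-trend on log2(TPM + 1) and log2(TPM + 0.1), and 0.213 for COL1A2 without both libraries that stand apart. With 1 library left out it ranged from -0.313 to 0.001 for COL1A1, -0.201 to 0.122 for COL1A2, -0.092 to 0.23 for COL5A1 and -0.538 to 0.114 for COL5A2, and the dose change of COL3A1 on the gel from -0.945 to 0.207. The gel difference in log2 ratio of COL1A1 to COL1A2 was -0.471 in expected counts and -0.619 without both libraries that stand apart, both called, and -0.808 to -0.457 with 1 left out. The type V to type I ratio then ranged from 0.276 to 0.471, called without replicate 1 of plastic at 250 nM. Dose differences ranged from 1.046 to 1.398 for COL1A1 to COL1A2, 0.945 to 1.332 for COL5A1 to COL5A2 and -1.964 to -1.491 for COL3A1 to COL1A1, and most lost the call with 1 library fewer. In expected counts the last was -1.059 and not called. Depth at 250 nM limits COL3A1 most, with 25 counts in its lowest library.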
